A study of Mus musculus with 8 samples.

Results

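The comparison described here is between 2 of the 8 libraries of a study of mitofusin 2 in mouse spermatogenesis. Both came from the fraction labelled leptotene/zygotene (L/Z) spermatocytes of C57BL/6J testes at postnatal day (PD) 52. One library was from MFN2 WT animals, which carried Mfn2 loxp/loxp without a Cre, and the other from MFN2 cKO animals, Mfn2 loxp/loxp with Stra8-Cre. The loxP sites flank exon 6 of Mfn2. The methods place the Cre in male germ cells and allow heterozygous floxed littermates as controls. Spermatocytes were separated by sedimentation through albumin and judged by size and shape. The other 6 libraries, pachytene (P) fractions of PD 52 and both fractions of PD 24, enter only where a value is set beside theirs. All genes of the table were considered, and those with more than 1 FPKM (fragments scaled to gene length and to sequencing depth) in either library were compared: 17860 of 54532. A gene under 1 FPKM in 1 library passed only through the other, so its direction was set by the filter. Counts and medians of lists that lost members to the filter share this limit.

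MFN2 is a GTPase of the outer mitochondrial membrane that joins mitochondria to one another and tethers them to the endoplasmic reticulum. Leptotene and zygotene are the early stages of meiotic prophase, when SPO11 cuts DNA, the breaks begin to be repaired and homologous chromosomes pair. Spermatocytes later become round and then elongating spermatids, which replace histones by transition proteins and then by protamines, while Sertoli, Leydig and myoid cells and macrophages are the somatic neighbours.

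Sequencing put 16051932 reads on genes in the MFN2 WT library and 16808982 in the MFN2 cKO library. With 1 library for each genotype there was no replicate check, so no test between genotypes was possible and every difference below is a difference between these 2 libraries. Changes are MFN2 cKO minus MFN2 WT on log2(FPKM + 1), a scale that understates changes of low genes. Intervals in brackets are exact binomial 95% intervals on the reads of the gene in the 2 libraries and cover counting error only, not the spread between animals. Fewer cells of a type and less RNA per cell cannot be told apart in such bulk libraries.

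Mfn2 itself (ENSMUSG00000029020, chromosome 4) had 97.5 FPKM from 7582 reads in MFN2 WT and 47.9 FPKM from 3634 reads in MFN2 cKO. The change was -1.01 (-1.07 to -0.96), so 49.1% of the WT level was left. These values count reads over the whole gene, not over the floxed exon. In the other pairs Mfn2 was lower by a similar amount in L/Z PD 24 (82.2 against 34.3 FPKM) and P PD 24 (77.1 against 39.6 FPKM), and by less in P PD 52 (62.2 against 50.1 FPKM). Of the 27 genes of mitochondrial fusion, fission and transport that passed the filter, Mfn2 was the only one past 2-fold. Mfn1, the other outer membrane fusion protein, had 13.4 and 12.5 FPKM, and Opa1, which joins the inner membranes, had 8.42 and 7.83 FPKM.

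The label of the fraction was checked against marker genes. All 34 markers of leptotene and zygotene cells had reads in both libraries, and together they made 968.5 FPKM in MFN2 WT and 921 FPKM in MFN2 cKO. Markers of later stages were far more abundant: the 21 markers of elongating spermatids summed to 16144 FPKM in MFN2 WT and 26970 FPKM in MFN2 cKO, the 20 of round spermatids to 2679 and 3266 FPKM, and the 17 of pachytene cells to 6432 and 7279 FPKM. Over all 8 libraries, P fractions included, the leptotene and zygotene sum lay between 857 and 1058 FPKM, so it did not mark the L/Z fractions. The elongating spermatid sum lay between 1424 and 9041 FPKM in the other 6. Both PD 52 libraries labelled L/Z thus held more late spermatid RNA than any other library, and the name is kept below as a label. None of the markers of Sertoli, Leydig, peritubular myoid or endothelial cells or of macrophages was at 0 reads in either library. Of 10 endothelial markers 3 passed the filter, and of 5 erythroid genes 2 passed, Hba-a1 and Hbb-bs, at under 2 FPKM. The most abundant entry in both was Gm23935, a 57-base gene annotated as a miRNA, with 16843 FPKM (14370 reads) in MFN2 WT and 42563 FPKM (35464 reads) in MFN2 cKO.

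Across the 17860 genes the median change was 0.02, and 92.0% of genes lay within 2-fold. The MFN2 cKO level was 2-fold or more above MFN2 WT for 863 genes (4.83% of those compared) and 2-fold or more below for 557 genes (3.12%). The 2 directions were not equally well covered: 262 of the higher and 351 of the lower genes had under 20 reads in both libraries together. Among the 12552 protein-coding genes the median was 0.01, with 458 higher (3.65%) and 144 lower (1.15%). Scaling each library to its own FPKM total moved the median of all genes from 0.02 to -0.23. The shift differed between lists in size and direction, so it cannot be subtracted from the values below. For example, the macrophage median fell from 2.34 to 2.18, whereas the Leydig median rose from 1.88 to 1.99. Scaling to the FPKM total changed the sign of 20 of 53 list medians. These 20 lay between 0.00044 and 0.28 as deposited and between -0.27 and -0.0033 after scaling. They include those of glycolysis, heat shock, both nuclear respiratory lists, mitochondrial dynamics, mitophagy, ER stress, the axoneme and the acrosome.

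**Figure D1:**
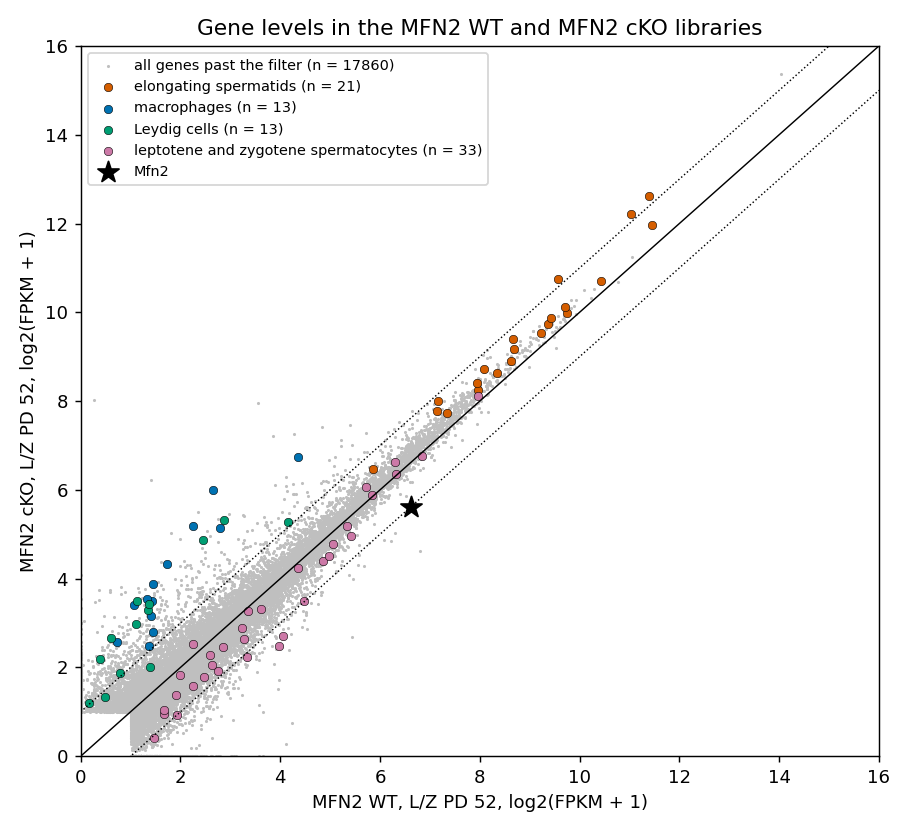
Level of each of the 17860 genes in the MFN2 WT library (horizontal axis) and the MFN2 cKO library (vertical axis), both as log2(FPKM + 1), with the members of 4 marker lists coloured and Mfn2 as a star. The solid line marks equal levels and the dotted lines a 2-fold difference. Macrophage and most Leydig markers lie above the upper dotted line, elongating spermatid markers at the top right lie above the solid line, and most leptotene and zygotene markers lie below it.

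Among the gene lists, those of macrophages, MHC class II and Leydig cells had the largest median changes. Of 15 macrophage markers 13 passed the filter, and all 13 were at least 2-fold higher in MFN2 cKO, with a median change of 2.34 against 0.02 over all genes. Lyz2, the lysozyme of phagocytes, had 5.28 FPKM in MFN2 WT and 62.5 FPKM in MFN2 cKO, a change of 3.34 (3.09 to 3.59). C1qa, a chain of the first complement component, had 3.79 and 35.3 FPKM. At the low end of the list were Cd14, a receptor for bacterial lipopolysaccharide, with 1.57 and 4.57 FPKM, and Adgre1, which encodes the F4/80 antigen, with 1.73 and 5.96 FPKM. The summed level of the list was 48.5 FPKM in MFN2 WT and 325 FPKM in MFN2 cKO, the highest of all 8 libraries, and the next highest was 184 FPKM in MFN2 cKO of L/Z PD 24. Its median was above 0 in the other pairs too, at 1.34 in L/Z PD 24, 0.69 in P PD 52 and 0.87 in P PD 24.

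MHC class II genes, whose products present antigens on macrophages, dendritic cells and B cells, followed another pattern across libraries. This list was added after values were seen. Of its 11 genes 6 passed, all 6 were higher and 4 were past 2-fold, with a median of 2.07. H2-Aa had 2.96 FPKM in MFN2 WT and 28.5 FPKM in MFN2 cKO, H2-Eb1 had 6.83 and 43.2 FPKM, and H2-DMa and H2-DMb1, which load peptides, had 8.14 and 11.7 FPKM and 3.28 and 6.08 FPKM. In the remaining 6 libraries H2-Aa lay between 0.366 and 3.85 FPKM, and only the PD 52 L/Z MFN2 cKO library was above that range. The median of the list was -0.07 in L/Z PD 24, 0.04 in P PD 52 and 0.00 in P PD 24. Of 18 lymphocyte genes, also added after values were seen, 3 passed: Cd3d (1.88 and 3.43 FPKM), Trbc2 (4.15 and 7.41 FPKM) and Ighm (0.248 and 3.26 FPKM).

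Leydig cell genes were higher as well: 13 of 13 passed, all were higher, and 11 were at least 2-fold higher, with a median of 1.88. Cyp17a1, the enzyme that makes androgen precursors, had 4.47 FPKM in MFN2 WT and 28.0 FPKM in MFN2 cKO, and Fabp3, a fatty acid carrier, had 6.33 and 39.2 FPKM. Smallest in change were Star, which brings cholesterol into mitochondria, with 1.61 and 3.01 FPKM, and Ces1d, an esterase, with 0.395 and 1.53 FPKM. In the other pairs the median of this list was 2.07 in L/Z PD 24, 1.80 in P PD 52 and 2.19 in P PD 24. The Klk1b tissue kallikreins are enzymes made by Leydig cells, and Klk1b21, Klk1b24 and Klk1b27 are already counted in the Leydig list. Of 13 Klk1b genes 11 passed, 9 were at least 2-fold higher and the median was 1.18. Some, such as Klk1b27 (0.301 and 3.54 FPKM), passed only through MFN2 cKO. Klk1b genes are near-identical copies, so the division of reads among them is uncertain in both lists.

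Sertoli markers were low in both libraries but higher in MFN2 cKO, where 7 of the 11 that passed were past 2-fold and the median was 1.22. Of 18 markers, 7 were over 1 FPKM in MFN2 WT and 11 in MFN2 cKO. Gata1, Wt1, Rhox5 and Rhox8 passed only through MFN2 cKO, so the count and the median are partly set by the filter. Cst12, a cystatin, had 3.57 and 18.7 FPKM, and Clu, clusterin, had 11.9 and 35.7 FPKM. Gata1 had 0.603 and 1.04 FPKM, and Wt1 had 0.475 and 1.27 FPKM. The other 6 libraries had more Clu, between 103 and 385 FPKM, and the list's median was -0.25 in L/Z PD 24, -1.03 in P PD 52 and 0.21 in P PD 24. Peritubular myoid genes did not share the shift: 4 of the 8 that passed were higher and 4 lower, the median was 0.01, and Actg2 had 118 and 162 FPKM against 8.71 and 5.69 FPKM for Myh11.

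Among fibroblast and matrix genes, a list added after values were seen, 31 of 32 passed, 29 were higher and 20 were past 2-fold, with a median of 1.26. Dcn, which encodes the matrix proteoglycan decorin, had 4.07 FPKM in MFN2 WT and 44.4 FPKM in MFN2 cKO, and Clec3b, tetranectin, had 2.49 and 31.6 FPKM. Fn1, fibronectin, went the other way with 6.43 and 2.42 FPKM, a change of -1.12 (-1.24 to -0.99), and Fbln1 had 2.85 and 1.55 FPKM. Other genes among the 10 highest protein-coding changes were Apoe (13.4 and 147 FPKM), Selenop (3.76 and 37.4 FPKM), Gsn (18.3 and 153 FPKM), Pf4 (0.741 and 13.0 FPKM) and Wfdc17 (0.501 and 12.4 FPKM). The top change among them, 3.39 for Gm9780 (6 and 256 reads), belongs to an uncharacterised gene.

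Interferon and chemokine genes passed the filter in 24 of 43 cases; 23 were higher and 14 past 2-fold, with a median of 1.22. Ccl7 and Ccl2, which attract monocytes, had 0.751 and 11.5 FPKM and 0.587 and 7.81 FPKM. Both passed only through MFN2 cKO, so the count and the median of this list are partly set by the filter. Stat2 had 1.36 and 1.24 FPKM, and Mb21d1, the DNA sensor cGAS, 1.05 and 1.24 FPKM. The summed level of macrophage markers moved with these genes, and its part in the chemokine, matrix and immediate early gene changes was not tested. Median changes of the interferon and chemokine list in the other pairs were 0.52 in L/Z PD 24, 0.89 in P PD 52 and 0.22 in P PD 24.

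**Figure D2:**
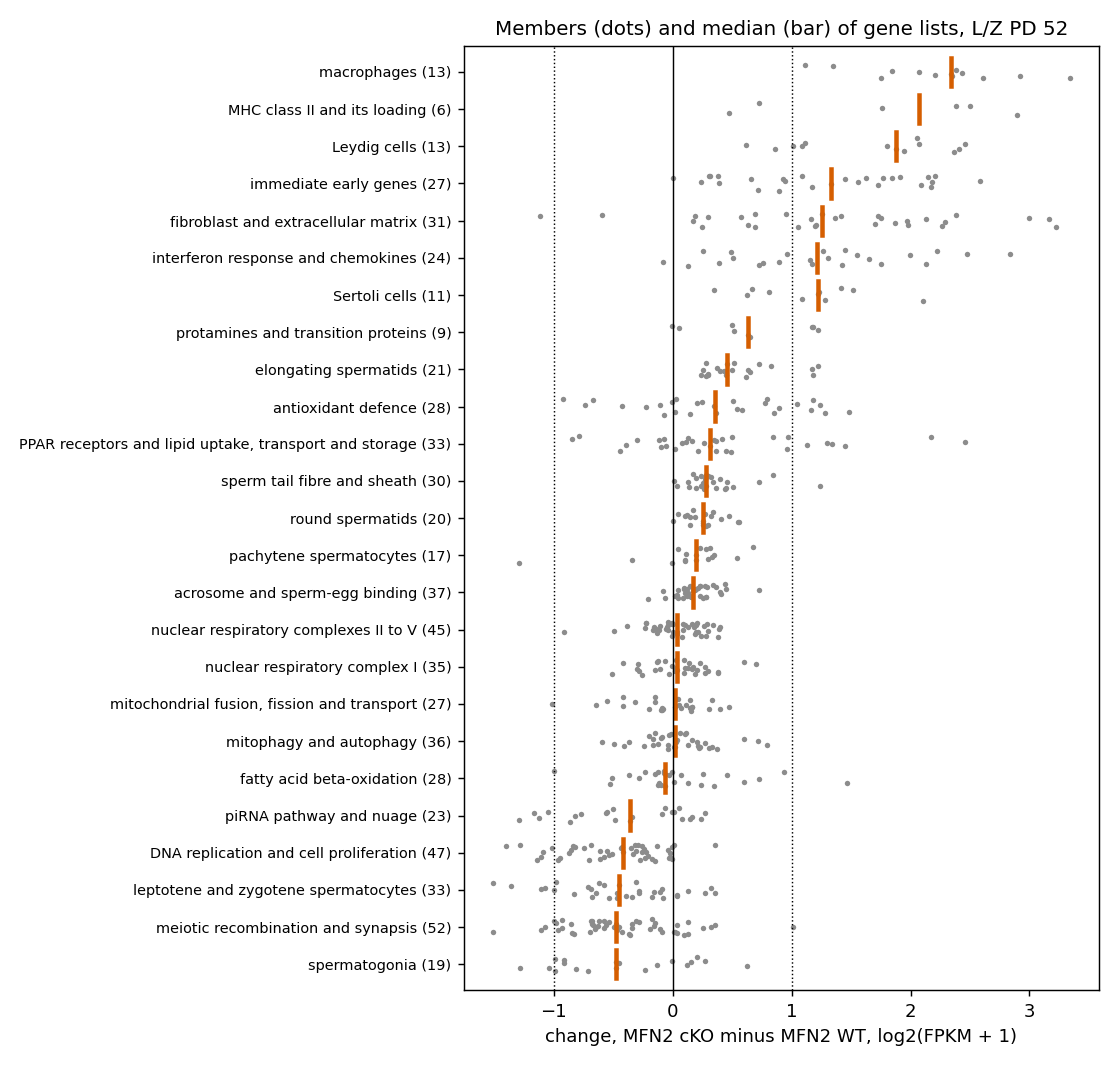
Change of each member past the filter (dots, log2(FPKM + 1), MFN2 cKO minus MFN2 WT) and the median (bar) for 25 gene lists, with the number of members in brackets. Dotted lines mark 2-fold. The 7 lists at the top, of somatic, immune and immediate early genes, have medians of 1.22 to 2.34, the lists of nuclear respiratory chain and mitochondrial dynamics genes lie near 0, and early meiotic, spermatogonial and replication lists lie below 0.

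Immediate early genes, transcribed within minutes of a stimulus, were 27 of 27 higher. Past 2-fold were 16, and the median was 1.33. Atf3, a stress-induced transcription factor, had 5.77 FPKM in MFN2 WT and 39.5 FPKM in MFN2 cKO, a change of 2.58 (2.38 to 2.78), and Myc had 0.541 and 6.09 FPKM. Nr4a2 had 0.774 and 1.10 FPKM, and Egr3 12.9 FPKM in both. The MFN2 cKO library was also the higher one in the other pairs, with medians of 0.89 in L/Z PD 24, 0.71 in P PD 52 and 0.32 in P PD 24. Absolute levels differed by age: Atf3 had 42.3 FPKM in the WT L/Z library of PD 24, above the 39.5 FPKM of the PD 52 MFN2 cKO library.

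Because these genes moved together, their promoters were searched for the cyclic AMP response element TGACGTCA, which reads the same on both strands, in the 250 bases before each start site (RefSeq, GRCm38.p6). Of 21 immediate early genes with an entry 3 held it (14.3%), against 1.77% of 27025 genes. The windows are shown with the element in capitals; they lie at chr1:134079303-134079332, chr17:26508597-26508626 and chr15:79347480-79347509, the first and the second on the minus strand.
Btg2: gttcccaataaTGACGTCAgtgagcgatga
Dusp1: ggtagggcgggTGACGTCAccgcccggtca
Maff: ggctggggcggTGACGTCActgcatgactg
Btg2, an inhibitor of proliferation, had 6.26 and 12.5 FPKM, Dusp1, a phosphatase of MAP kinases, 14.7 and 34.3 FPKM, and Maff, a basic leucine zipper factor, 2.81 and 8.6 FPKM. Shares in other lists included 12.5% for MHC class II (1 of 8 genes), 11.1% for round spermatids (2 of 18), 10% for the tricarboxylic acid cycle (2 of 20) and 9.38% for complex I (3 of 32). A match of letters describes the window and is not evidence of binding.

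Genes of late spermatids were higher in MFN2 cKO. All 21 elongating spermatid genes passed and were higher, with a median of 0.46, and 3 were past 2-fold. Tnp2, transition protein 2, had 2684 FPKM in MFN2 WT and 6254 FPKM in MFN2 cKO, a change of 1.22 (1.20 to 1.24). Prm1, protamine 1, had 2081 and 4717 FPKM, and Tnp1 had 759 and 1711 FPKM. Prm2 had 2801 and 4017 FPKM. Smaller changes were those of Odf1, of the outer dense fibres, with 862 and 1015 FPKM, and Smcp, of the mitochondrial sheath, with 1387 and 1660 FPKM; both turned to -0.05 and -0.02 when libraries were scaled to their FPKM totals. The list of protamines and transition proteins, which includes the chromatin factors Brdt (65.6 and 68.2 FPKM) and Chd5 (75.3 and 75.1 FPKM), had a median of 0.63. In the other pairs its median was -3.51 in L/Z PD 24, -0.97 in P PD 52 and -3.79 in P PD 24, and Tnp2 had 778 FPKM in WT and 17.9 FPKM in cKO of L/Z PD 24.

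Further spermatid lists shifted by less. Sperm tail genes were 30 of 30 higher with a median of 0.28, which became -0.0033 under scaling to the FPKM total. They ran from Fsip2 (29.4 and 29.7 FPKM) and Rsph1 (628 and 646 FPKM) to Spata19 (135 and 244 FPKM) and Gsta2 (0.681 and 2.96 FPKM). Round spermatid markers were 19 of 20 higher with a median of 0.26, -0.02 under that scaling, with Txndc8 at 117 and 172 FPKM and Tssk2, a testis kinase, at 250 and 367 FPKM. Acrosome and sperm-egg binding genes had a median of 0.17 and none past 2-fold, and the same scaling gave -0.09. Axoneme genes had a median of 0.03, with 28 of 50 higher.

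Early germ cell genes were lower. Of 34 leptotene and zygotene markers 33 passed, 27 were lower and 4 of them at least 2-fold, with a median of -0.45. Spo11, which makes the breaks that start recombination, had 14.8 FPKM (870 reads) in MFN2 WT and 4.55 FPKM (261 reads) in MFN2 cKO, a change of -1.51 (-1.68 to -1.34). Stra8, the factor that licenses entry into meiosis and whose promoter drives the Cre, had 15.7 and 5.50 FPKM. Syce2 and Syce3, central element proteins of the synaptonemal complex, were at the other end with 51.4 and 66.1 FPKM and 77.7 and 97.5 FPKM. Sycp3, of the axial element, had 32.3 and 26.5 FPKM. Among other genes that the study used as markers or measured, H2afx had 23.9 and 17.0 FPKM, Terf1 6.54 and 7.99 FPKM, and Pcna 45.7 and 44.4 FPKM. The elongating spermatid sum given above moved the opposite way, and its part in the lower early germ cell genes was not tested. Medians of the list in the other pairs were 0.04 in L/Z PD 24, -0.25 in P PD 52 and -0.16 in P PD 24.

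STRA8 acts with MEIOSIN at promoters that hold CNCCTCAG. In the 250 bases before the start site, on either strand, 4 of the 27 leptotene and zygotene genes with an entry held this pattern (14.8%), against 7.39% of 27025 genes, and Spo11 and Stra8 were not among the 4. The windows lie at chr11:4441173-4441202, chr17:35046686-35046715, chr17:15564377-15564406 and chr8:84872208-84872237, all but the last on the minus strand, with the pattern or its reverse complement in capitals.
Hormad2: agcaaggcctgCTGAGGGGccaaccttaga
Msh5: gatcgtcgcggCTGAGGTGacggaaaaggc
Prdm9: tcttgttcccgCCCCTCAGccagctgtctg
Syce2: cgcagagggcgCTGAGGCGggaaaagacgg
Higher shares were found in other lists, such as 27.3% for heat shock genes (6 of 22) and 20% for spermatogonial (3 of 15) and Sertoli genes (2 of 10), and the share was 11.1% among genes at least 2-fold higher and 9.68% among those lower. The levels of the 4 genes did not share a direction. Hormad2, of the chromosome axis, had 4.52 and 2.43 FPKM, Msh5, of crossover formation, 5.21 and 3.17 FPKM, and Prdm9, which places the breaks, 2.81 and 0.905 FPKM, while Syce2 was the member with the highest change of the list.

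Recombination and synapsis genes as a whole, a list that shares Spo11, Tex12, Prdm9 and others with the markers above, were 41 of 52 lower with a median of -0.47. Tex12 had 9.14 and 3.70 FPKM, and Mnd1, which helps strand invasion, was the only one past 2-fold higher with 2.37 and 5.79 FPKM. Spermatogonial markers were 14 of 19 lower with a median of -0.47. Dmrt1, a regulator of spermatogonia, had 22 and 8.44 FPKM, and Kit, the receptor of differentiating spermatogonia, 5.30 and 2.07 FPKM. Zbtb16, a marker of undifferentiated spermatogonia, had 4.15 and 2.71 FPKM. Ret had 1.45 and 1.96 FPKM, and Etv5 1.89 and 3.47 FPKM. In the other pairs the spermatogonial median was 0.34 in L/Z PD 24, -0.04 in P PD 52 and 0.38 in P PD 24.

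Genes of the piRNA pathway, which silences transposons in germ cells, were 16 of 23 lower with a median of -0.35, and 4 were past 2-fold. Piwil1 had 40.5 and 16 FPKM, and Mov10l1, the helicase that starts piRNA production, 23.6 and 9.99 FPKM. The most abundant member, Mael, had 702 and 848 FPKM, followed by Ddx4 with 235 and 236 FPKM and Tdrd6 with 206 and 198 FPKM. Gtsf1 had 167 and 197 FPKM, and Mael and Gtsf1 turned to -0.01 and -0.05 under scaling to the FPKM total. Piwil1 is also a pachytene marker, and the other 16 of the 17 pachytene markers were within 2-fold, with a list median of 0.20 that became -0.08 under that scaling. Pgk2, the glycolytic enzyme of meiotic cells, had 448 and 651 FPKM, Hist1h1t 3.0 and 5.4 FPKM and Mybl1 10.6 and 8.17 FPKM. The RNA-binding regulators Dazl (47.1 and 22 FPKM) and Cpeb1 (5.13 and 1.81 FPKM) were at the lower end of the mRNA regulators, which had a median of 0.09.

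DNA replication and proliferation genes, a list added after values were seen, were 45 of 47 lower with a median of -0.41, and 6 were past 2-fold. Mki67, present in cycling cells, had 10.9 and 3.52 FPKM, a change of -1.40 (-1.51 to -1.28), and Dnmt1, which copies DNA methylation, had 14.9 and 5.53 FPKM. Gins4 (30.6 and 39.6 FPKM) and Rfc3 (4.57 and 4.62 FPKM) were the 2 exceptions. Among 222 families formed by the letters before the first digit of a symbol, Mcm, with the subunits of the replicative helicase and related genes, had the lowest median of all, -0.58 over 10 genes. The next were Kmt at -0.56, Dock at -0.44, the E stem (mostly E2f factors) at -0.41 and Tcf at -0.39. Highest were Ccl at 1.45, Klk at 1.16, the S stem (mostly S100 proteins) at 1.12, Ifi at 1.02 and the H stem (with the H2 genes) at 0.63.

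The nuclear genes of the respiratory chain and the mitochondrial ribosome had medians near 0, and the mitochondrially encoded mRNAs a median below 0. The 35 nuclear complex I genes had a median of 0.03 and the 45 genes of complexes II to V a median of 0.04, with none past 2-fold, and 37 of 73 mitochondrial ribosomal proteins were higher with a median of 0.00044. Ndufb11 (6.4 and 11 FPKM) and Ndufa12 (42.2 and 64.7 FPKM) were highest in complex I, and Ndufc2 (14.8 and 10.1 FPKM) and Ndufb3 (25.2 and 18.6 FPKM) lowest. Cyc1 of complex III had 18.4 and 9.27 FPKM. Several respiratory chain genes were also measured by RT-qPCR in pachytene spermatocytes, which is not used here. Of these, Atp5a1 had 80.4 and 68.8 FPKM, Ndufv1 41.4 and 40.4 FPKM, Sdhb 30.8 and 29.9 FPKM, and Uqcrc2 19.8 and 19.7 FPKM. Tomm20, an import receptor, had 10.4 and 9.26 FPKM. Mitochondrially encoded mRNAs were 12 of 13 lower with a median of -0.47. The extremes rested on few reads, 25 and 5 for mt-Nd4l and 26 and 6 for mt-Nd3, whereas mt-Co1 had 1753 and 1637 FPKM, a change of -0.10 (-0.12 to -0.08), and mt-Cytb 741 and 590 FPKM.

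In lipid metabolism, PPAR receptors and lipid handling genes passed the filter in 33 of 49 cases, with 24 higher, 6 past 2-fold and a median of 0.31. Fabp3, counted with the Leydig genes above, and Pltp, a phospholipid transfer protein (3.26 and 18.2 FPKM), were the highest. Slc27a2, a fatty acid transporter, had 1.23 and 0.237 FPKM and Mgll, a lipase, 7.66 and 4.03 FPKM. The receptors were scarce: Pparg had 0.81 and 1.41 FPKM (36 and 61 reads), Ppara 0.82 and 0.61 FPKM, and Ppard 0.78 and 0.55 FPKM. Pex3, of peroxisome formation, had 21.1 and 23.8 FPKM. Fatty acid beta-oxidation had a median of -0.07, with Acaa2 at 3.44 and 11.3 FPKM and Acaa1b at 2.52 and 0.767 FPKM, and the tricarboxylic acid cycle a median of -0.06, with Idh2 at 1.57 and 3.96 FPKM and Pcx at 8.0 and 4.43 FPKM. Glycolysis had a median of 0.15, with Ldhb at 4.09 and 12.9 FPKM. The Leydig sum moved with Fabp3 and the lipid genes, and its part was not tested. Cholesterol synthesis had a median of -0.10, with Ebp at 0.492 and 1.51 FPKM and Mvd at 4.89 and 2.36 FPKM.

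Antioxidant genes were 20 of 28 higher with a median of 0.36 and 6 past 2-fold, such as Gpx3 (1.73 and 6.64 FPKM) and Txn1 (4.2 and 11.7 FPKM). Gclc, the first enzyme of glutathione synthesis, had 8.55 and 4.05 FPKM and Gsr 14.9 and 8.57 FPKM. The summed levels of macrophage, Leydig and matrix genes were also higher in MFN2 cKO, and their part in the antioxidant changes was not tested. The ER stress list had a median of 0.01, with Atf3 and Ppp1r15a (5.91 and 17.3 FPKM) at the top and Chac1 (1.92 and 0.585 FPKM) and Shmt2 (5.37 and 2.90 FPKM) at the bottom. In the p53 and apoptosis list, with a median of -0.05, Cdkn1a had 1.52 and 5.53 FPKM and Bax 6.06 and 2.26 FPKM. Heat shock genes had a median of 0.16, with Hspa1a at 1.85 and 5.51 FPKM, and mitophagy and autophagy genes a median of 0.02, with none past 2-fold.

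X-linked genes had higher changes than autosomal genes as a group, with no test between them. The 483 protein-coding genes of the X chromosome had a median of 0.24, against 0.00047 for 12018 autosomal genes, and 8.90% of them were at least 2-fold higher, against 3.41%. X-linked and autosomal medians were 0.16 and 0.11 in L/Z PD 24, -0.27 and -0.08 in P PD 52, and 0.18 and -0.08 in P PD 24.

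Medians of further families are given against the all-gene median of 0.02. Cytosolic ribosomal proteins had a median of 0.15 (-0.12 under scaling to the FPKM total), with 61 of 79 higher. Proteasome subunits had a median of -0.04, mitochondrial solute carriers 0.05, Zfp zinc finger genes -0.10, CatSper and sperm ion transport genes 0.11 (-0.17 under that scaling), testis serine kinases 0.32 and clustered histones 0.23. Small structural RNAs had lower medians but few reads: 35 rRNA genes had a median of -0.79 and a median of 3 reads in both libraries together, and 155 snoRNA genes a median of -0.25 and 4 reads. Long intergenic RNAs, 1523 genes, had a median of 0.16 (-0.07 under scaling to the FPKM total). Of them 83 were higher and 47 lower by 2-fold, near the shares over all genes, 4.83% and 3.12%.

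**Figure D3:**
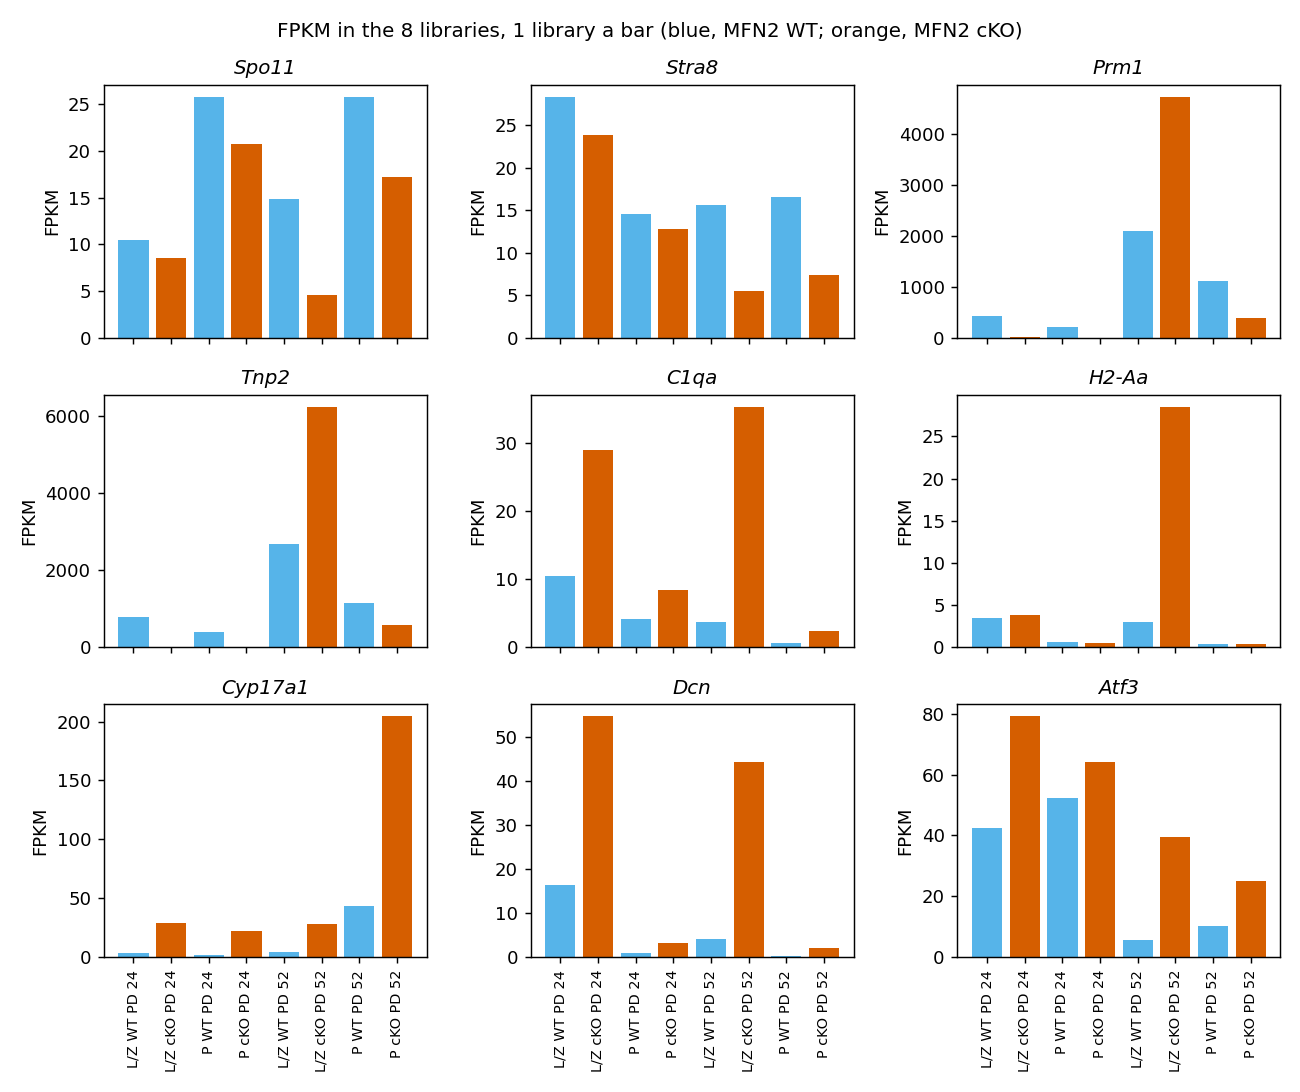
FPKM of 9 genes in the 8 libraries, 1 library a bar, with MFN2 WT in blue and MFN2 cKO in orange; bars start at 0 and each panel has its own scale. Prm1 and Tnp2 are highest in the PD 52 L/Z MFN2 cKO library and near 0 in MFN2 cKO at PD 24, H2-Aa stands out in the PD 52 L/Z MFN2 cKO library, and Spo11 is lowest there at 4.55 FPKM.

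Across all genes, the changes of this pair were at most weakly correlated with those of the other pairs, which share no library with it. Pearson's r over genes that passed in both pairs was 0.08 with L/Z PD 24 (15867 genes), 0.12 with P PD 52 (15591 genes) and -0.01 with P PD 24 (14755 genes). These are descriptions, since genes are not independent replicates. The 458 protein-coding genes at least 2-fold higher had a median change of 0.81 in L/Z PD 24, 0.34 in P PD 52 and 0.43 in P PD 24. Of these 458, 372, 307 and 367 were higher in those pairs. Among all protein-coding genes past the filter of each pair, 8065 of 13118, 5237 of 12396 and 4963 of 12496 were higher. For the 144 lower genes the medians were 0.09 in L/Z PD 24, -0.55 in P PD 52 and 0.02 in P PD 24. Of these 144, 59, 115 and 63 were lower in those pairs, against 5053, 7159 and 7533 of the same protein-coding genes.

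Change also moved with gene length. In the shortest eighth of protein-coding genes (up to 1504 bases) the median was 0.24, and in the longest (from 8526 bases) it was -0.13, with every step in between downward. L/Z PD 24 had a trend of the same direction, from 0.29 to -0.11, and P PD 52 the opposite one, from -0.50 to 0.19. Relative to genes of like length the macrophage median was 2.10, that of elongating spermatids 0.28, that of protamines and transition proteins 0.39, and that of leptotene and zygotene genes -0.44. The part of length in these results was not tested further.

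**Figure D4:**
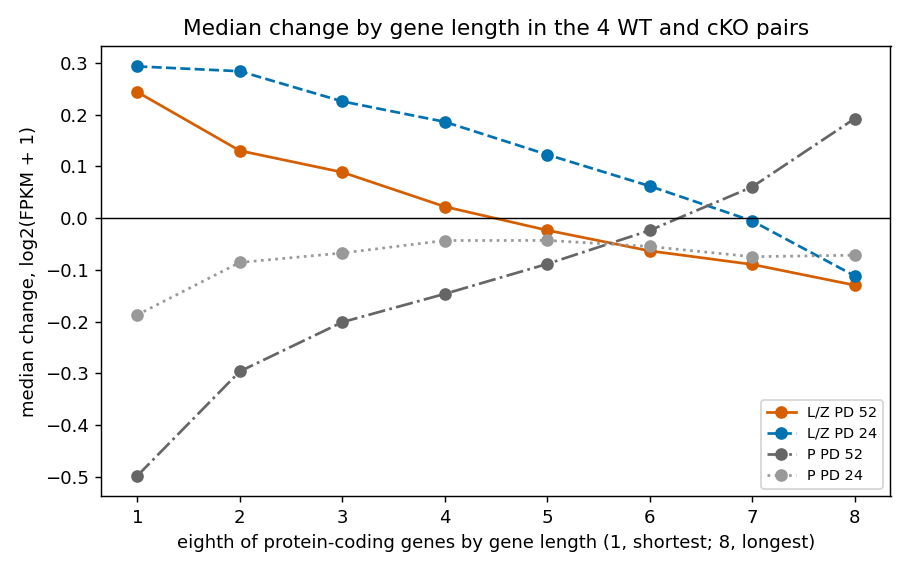
Median change on log2(FPKM + 1) in each eighth of the protein-coding genes past the filter, ordered by gene length, for the 4 pairs of libraries. The L/Z PD 52 pair goes down from 0.24 in the shortest to -0.13 in the longest genes, while the P PD 52 pair goes up.

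Some of the largest changes lay in genes that share sequence with another gene, and their values are uncertain. Rpl34, a ribosomal protein, took 1996 reads in the WT library and 719 in the cKO library, while its pseudogene Rpl34-ps1 had 57 and 1281 reads; the sums were 2053 and 2000. The 2 share 218 stretches of 50 bases, 71.5% of those in the smaller. Rpl29 had 1857 and 390 reads and the pseudogene Gm7993 34 and 1492, with sums of 1891 and 1882, but their annotated transcripts share 0 stretches of 50 bases, so a shared sequence was not found for this pair. The pseudogene's share of the Rpl34 reads was 64.0% in L/Z MFN2 cKO and 65.5% in P MFN2 cKO at PD 52, and between 2.10% and 3.43% in the other 6 libraries. Gm10488, an X-linked multicopy gene, had the lowest change of the protein-coding genes over 10 FPKM (558 and 69 reads). It shares sequence with Gm2005 (10 and 101 reads) and Gm5935 (27 and 94 reads). Here the sums were not alike, at 568 and 170 with Gm2005 and 585 and 163 with Gm5935. The remaining genes among the 10 lowest were Lcmt1 (17.2 and 4.22 FPKM), Rnls (43.2 and 15.0 FPKM), Crabp1 (17.5 and 5.71 FPKM) and Tomm20l (74.0 and 28.0 FPKM).

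A search over all genes, made after values were seen, found 10 genes whose levels in both PD 52 MFN2 cKO libraries lay outside those of all the other 6 libraries by 3-fold or more, 7 above and 3 below. Genes above also needed at least 100 reads in both PD 52 MFN2 cKO libraries. Genes below needed at least 30 reads in each of the other 6, so the 2 counts are not comparable. Higher were Rpl34-ps1, Gm7993, Gm4804 (51 and 475 reads in the L/Z PD 52 pair), 4933406B15Rik, Cps1, Dnah11 and Cyp2c55, and lower were Rpl29, Gm3029 and Luzp4. The same search looked for genes that separated all 4 MFN2 cKO from all 4 MFN2 WT libraries by that fold. At least 100 reads were required in each library of the higher genotype. Only 1 gene was found, Hist1h2al, annotated as a processed pseudogene on chromosome 13. Hist1h2al had 1285 reads in L/Z MFN2 cKO of PD 52 and 645, 520 and 820 reads in the other MFN2 cKO libraries. It had 1 read in L/Z MFN2 WT of PD 52 and 2, 13 and 5 in the other MFN2 WT libraries. The search looked for genes that separate the genotypes, so the match to the labels was set by its rule and is no check of them.

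**Figure D5:**
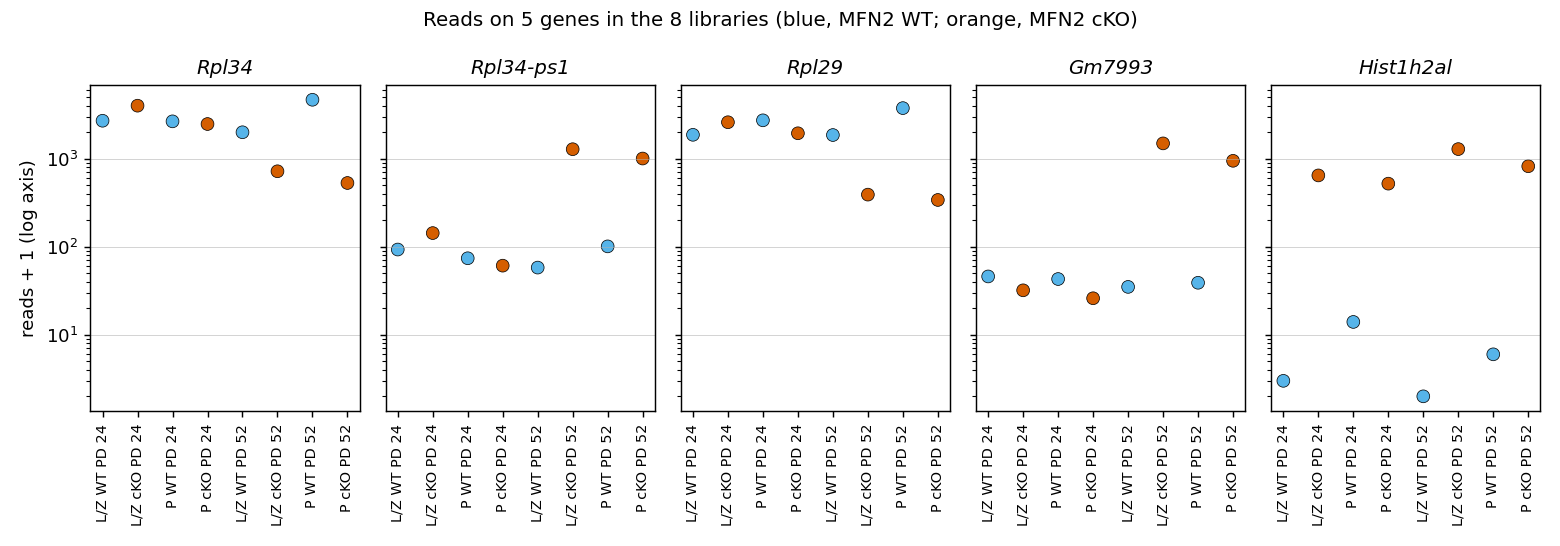
Reads on 5 genes in the 8 libraries, as reads + 1 on a log axis, 1 point a library, with MFN2 WT in blue and MFN2 cKO in orange. Rpl34 and Rpl29 are low and Rpl34-ps1 and Gm7993 high in the 2 PD 52 MFN2 cKO libraries, whereas Hist1h2al is high in all 4 MFN2 cKO libraries.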

How the data were processed

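Per the labels, libraries were made from total RNA of separated spermatocytes with an Illumina RNA kit. The authors deposited FPKM per gene with the gene's length, 1 column for each of 8 libraries. The submitters' processing notes name CASAVA 1.4 and Bowtie 0.12.2 and the builds mm8 and mm9, whereas the coordinates in the table are those of GRCm38 (GENCODE M21 gave the same start and end for 98.3% of matched genes). FPKM times length gave whole multiples of 1 read (within 0.001) for 100% of values in each library, so read numbers are those multiples. Each group held 1 library, so no count test was run and no p-value is given. Genes with FPKM over 1 in either library were compared on log2(FPKM + 1), and called at 2-fold. Intervals are exact Clopper-Pearson 95% intervals. The scripts were tested on simulated data.

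The genes, lists and searches were chosen with earlier results of these data known. Named were Mfn2, the 10 largest changes in each direction among protein-coding genes over 10 FPKM with at least 20 reads, the 2 highest and the 2 lowest members of each list, the most abundant gene, and genes the study measured otherwise, some of which are not reported here. Genes named outside that rule were chosen after their values were seen. Python 3.11.15, numpy 2.4.6, pandas 2.3.3 and scipy 1.17.1 were used.
Alternatives tried were another pseudocount, no filter or a higher filter, median-of-ratios and FPKM-total scaling, protein-coding genes only and a minimum of 20 reads. All 8 sample columns matched a label.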

Additional observations from a re-analysis of the deposited data

Results flagged for a closer look

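In 10 of 53 gene lists the median change had opposite signs in the 2 L/Z pairs and a size of at least 0.2 in both. With 1 library a group the differences between ages were not tested. The values are given as PD 52 and then PD 24.

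As deposited, late germ cell lists were higher in MFN2 cKO at PD 52 and lower at PD 24. The median was 0.63 and -3.51 for protamines and transition proteins, 0.46 and -1.48 for elongating spermatids, 0.32 and -0.96 for testis serine kinases, 0.26 and -0.57 for round spermatids, and 0.28 and -0.41 for the sperm tail. Sertoli markers went the same way, with 1.22 and -0.25. The late germ cell lists share members, such as Tnp2 in the protamine and elongating lists and Tssk2 in the kinase and round spermatid lists. They are therefore not separate observations. Under scaling to the FPKM total the PD 52 medians of round spermatids (-0.025) and the sperm tail (-0.0033) fell below 0.

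A further 4 lists went the other way. The median was -0.47 and 0.34 for spermatogonia, -0.41 and 0.21 for DNA replication, -0.47 and 0.22 for mitochondrially encoded mRNAs, and -0.20 and 0.26 for multicopy spermatid genes of the sex chromosomes. In the last list copies share sequence and the median is uncertain: it was 0.73 at PD 52 over genes above 10 FPKM, without the opposite sign.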

How the results depend on the processing

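The count of genes at least 2-fold higher was 863. It was 1498 with a pseudocount of 0.1, 252 over 10 FPKM, 458 among protein-coding genes and 909 when each library was scaled to its FPKM total. The count of lower genes was 557. It was 1185 with the pseudocount of 0.1, 62 over 10 FPKM, 144 among protein-coding genes, 206 with at least 20 reads, and 1483 when each library was scaled to its FPKM total, where the pseudocount also weighs less. With median-of-ratios scaling the counts were 818 and 582. The ratio of FPKM with nothing added, chosen after seeing the data, gave 1165 and 776 genes with at least 20 reads. The change of Mfn2 was -1.30 under scaling to the FPKM total and -0.95 relative to genes of like length, an alternative also chosen after seeing the data.

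Among list medians of at least 0.2 in size, scaling to the FPKM total reversed those of pachytene spermatocytes (-0.077), round spermatids (-0.025) and the sperm tail (-0.0033), and, among named genes whose counting interval left out 0, the changes of Odf1 (-0.048), Smcp (-0.024), Gtsf1 (-0.048), Mael (-0.010), Brdt (-0.23), Rsph1 (-0.24), Spag16 (-0.021), Tsks (-0.012) and Pex3 (-0.11). Centring on genes of like length reversed Odf1 (-0.0081), Gtsf1 (-0.0089), Rsph1 (-0.20) and beta-defensins (-0.020). A filter of 10 FPKM gave 0.73 for multicopy spermatid genes, and no filter gave -0.063 for beta-defensins and -0.042 for Rhox genes. In all, scaling to the FPKM total changed the sign of 20 of 53 list medians. The causes were not tested. Leaving out the few genes that stood apart in both PD 52 MFN2 cKO libraries kept all 53 list medians within intervals. These were drawn from the ranked changes of each list's members, not from reads. With so few genes left out, this check could hardly move a median.

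No paired analysis was possible because each group held 1 library, and no replicate was left out. Depth limits low genes: 613 of the 1420 genes past 2-fold had under 20 reads in both libraries together.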
